A study of Mus musculus with 18 samples.

Results

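Cholesterol synthesis and its control by the transcription factor SREBP2 were examined through 26 genes in the livers of 18 mice. The genes were chosen by name as members of the pathway: 20 enzymes of the route from acetyl-CoA to cholesterol and its isoprenoid side branch, 4 genes of the SREBP2 control circuit (Srebf2, Scap, Insig1 and Insig2), the sterol carrier Stard4 and the sterol transporter Npc1l1. They were chosen with earlier results of these data known, including low cholesterol synthesis genes in Dp16 livers. All 26 were among the 55385 genes of the deposited tables, and 25 were among the 15208 genes with enough counts to be tested. The exception was Npc1l1, with 0 counts in 16 livers, 5 counts in wild-type library 6 and 6 counts in Dp16 library 5. Npc1l1 is known mainly as a transporter of the intestine in mice.

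There were 3 genotypes of 6 mice each, wild-type C57BL/6J, Dp16 and a genotype named Dp16-2xIFNRs here, and each had 3 males and 3 females, aged 17.1 to 18.0 weeks and given no treatment. Dp16 mice carry an extra copy of a segment of mouse chromosome 16 and serve as a model of trisomy in Down syndrome. Dp16-2xIFNRs mice carry the same extra segment with the dosage of its interferon receptor genes returned to that of wild-type mice. The duplicated segment does not hold every gene that has a counterpart on the human chromosome. None of the 26 genes lies on chromosome 16, and Lss, whose human counterpart is on the trisomic chromosome, lies on mouse chromosome 10 (positions 76531588 to 76557138 of GRCm38).

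The livers were profiled as whole tissue by strand-specific, paired-end sequencing of polyadenylated RNA, with 38236222 to 59923315 counts per library. In bulk tissue, fewer cells of a type and less RNA per cell cannot be told apart. All 8 hepatocyte markers were detected, with a summed level of 78960 to 132800 CPM (counts scaled to library size) over the 18 libraries. All 12 genes examined in the duplicated segment had a higher estimate in Dp16 than in wild-type livers, with log2 fold changes of 0.37 to 0.75, and 0 of them passed the adjusted edgeR test. In Dp16-2xIFNRs livers 9 of the 12 were higher than in wild-type, with log2 fold changes of -0.10 to 0.84 (median 0.22), and 1 passed. The 12 include interferon receptor genes. Dp16 libraries 4 and 5 stood apart, with scaling factors of 0.803 and 1.34 and opposite trends of level with gene length. Here and below, such trends are of level relative to the mean of each gene over all libraries.

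Hepatocytes make cholesterol from acetyl-CoA through mevalonate, isoprenoid, squalene and sterol stages. When sterols in the endoplasmic reticulum are scarce, SCAP escorts SREBP2 to the Golgi, where it is cleaved, and the released factor enters the nucleus and turns on the genes of the route. When sterols are plentiful, INSIG proteins hold SCAP and SREBP2 back. SREBP2 binds sterol regulatory elements together with the general factors NF-Y and Sp1.

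Promoter windows in the RefSeq table for GRCm38.p6, from 250 bases before to 50 bases after each start, were found for 22 of the 26 genes. Fdps, Fdft1, Sqle and Stard4 were not matched. The sterol element core TCACNCCA, sought on both strands, was in 3 of 22 genes (Hmgcs1, Srebf2 and Msmo1), or 13.6%, against 4.97% of all genes in the table. The NF-Y motif CCAAT was in 20 of 22 genes (90.9%), all but Acat2 and Scap, against 41.1% of all genes. The Sp1 motif GGGCGG was in 19 of 22 (86.4%), all but Ggps1, Npc1l1 and Pmvk, against 38.2%. These are matches of letters in a window and say nothing of binding. The bases upstream of the start are shown for Nsdhl, the gene that passed the genotype test, and for Hmgcs1 and Srebf2, which hold the core in its exact form TCACCCCA, cut so that no annotated transcript is included. Capitals mark TCACNCCA and CCAAT on either strand (ATTGG is CCAAT on the other strand).
Nsdhl (chrX:72918271-72918520, plus strand): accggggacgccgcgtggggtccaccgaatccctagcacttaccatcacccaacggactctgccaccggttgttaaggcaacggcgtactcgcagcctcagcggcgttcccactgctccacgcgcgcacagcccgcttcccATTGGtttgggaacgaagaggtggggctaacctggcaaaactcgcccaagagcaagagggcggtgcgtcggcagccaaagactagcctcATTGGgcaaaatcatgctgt
Hmgcs1 (chr13:119690101-119690350, plus strand): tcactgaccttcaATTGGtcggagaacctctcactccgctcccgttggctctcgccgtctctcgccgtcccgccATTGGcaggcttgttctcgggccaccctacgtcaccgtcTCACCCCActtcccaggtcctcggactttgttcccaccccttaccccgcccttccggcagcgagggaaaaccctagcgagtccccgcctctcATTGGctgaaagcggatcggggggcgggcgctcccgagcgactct
Srebf2 (chr15:82147019-82147180, plus strand): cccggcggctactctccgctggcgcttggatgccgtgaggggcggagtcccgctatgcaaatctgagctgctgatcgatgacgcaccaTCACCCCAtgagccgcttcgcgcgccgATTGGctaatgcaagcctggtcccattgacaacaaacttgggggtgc
The Nsdhl stretch held 2 CCAAT matches and 0 matches of the sterol core. The Hmgcs1 stretch held 3 CCAAT matches around 1 sterol core, and the Srebf2 stretch held 1 of each.

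Per length of transcript, the members spanned a wide range of levels. In wild-type livers, Ebp, a sterol isomerase, had the highest mean at 181 ± 22.9 RPKM (reads scaled to gene length and library size; SD, n = 6), followed by Sc5d, a desaturase of late cholesterol synthesis, at 159 ± 26.7 RPKM and the sterol sensor Insig1 at 156 ± 38.5 RPKM. These 3 did not differ beyond their spread. Fdps, which makes farnesyl diphosphate, stood at 133 ± 22.6 RPKM, and Tm7sf2, one of the 2 sterol C14 reductases, at 121 ± 25.3 RPKM. Lbr, the other C14 reductase and a nuclear envelope protein, stood at 2.59 ± 0.610 RPKM. Ggps1, which makes geranylgeranyl diphosphate, was the lowest of the 25 tested genes at 1.25 ± 0.260 RPKM. The factor gene Srebf2 itself was at 9.71 ± 4.56 RPKM, below most of the enzymes.

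**Figure D1:**
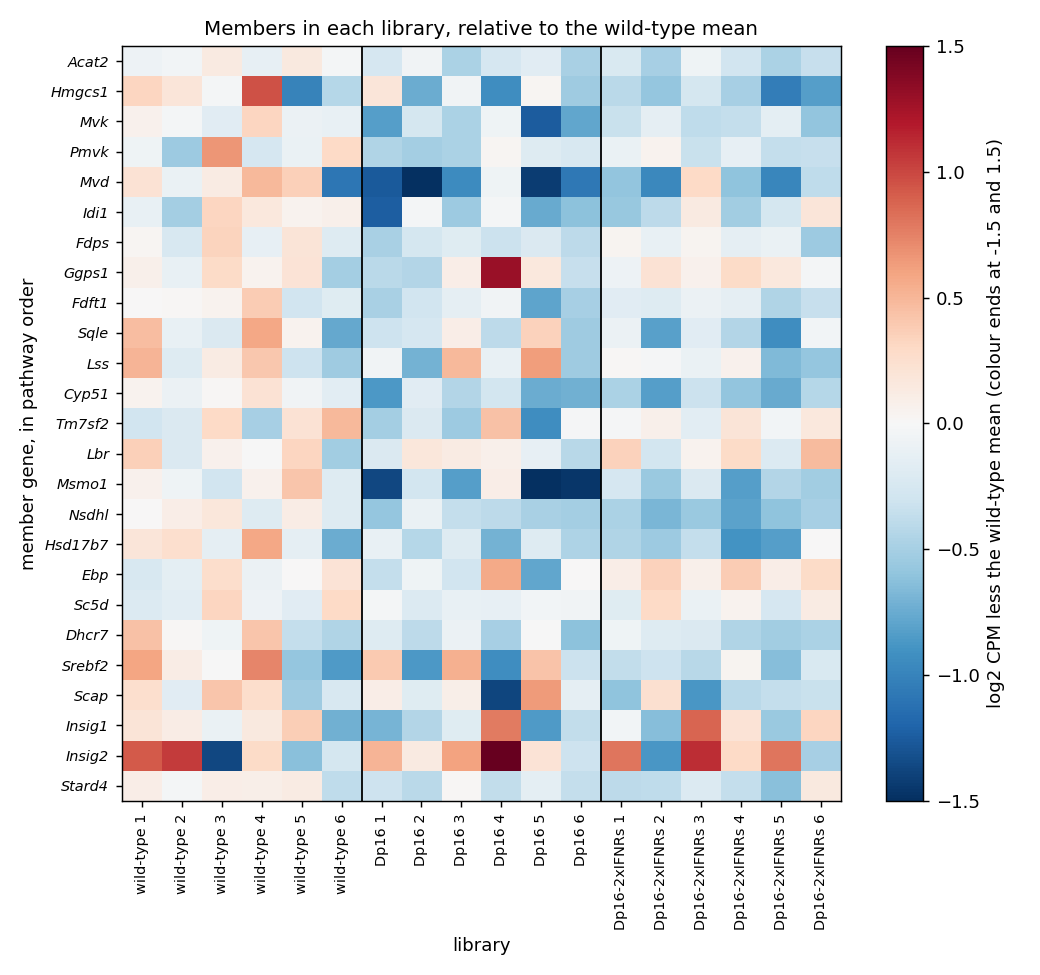
Level of 25 member genes (rows, in pathway order) in each of the 18 libraries (columns), as log2 CPM less the mean of the 6 wild-type libraries; blue is below and red above that mean. Cyp51 and Nsdhl are blue in all 12 libraries with the extra segment, while Ebp, Insig1 and Insig2 show both colours.

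Across the members, most estimates were lower in both groups with the extra segment, and 1 gene in 1 group passed the adjusted test. In Dp16 against wild-type livers, 23 of 25 genes had a negative log2 fold change, with a median of -0.27, against 48.6% negative and a median of 0.01 over all 15208 genes. In Dp16-2xIFNRs against wild-type livers, 20 of 25 were negative with a median of -0.29, against 52.6% negative and a median of -0.02 over all genes. These comparisons share the 6 wild-type libraries, and the genes were chosen with earlier results known, so the shared direction is not independent support. The mean of log2 CPM over the 25 genes, less that of wild-type, ran from -0.29 to 0.19 in wild-type, from -0.47 to -0.08 in Dp16 and from -0.41 to -0.09 in Dp16-2xIFNRs livers, so the groups overlapped. The group means were 0 ± 0.17, -0.30 ± 0.14 and -0.24 ± 0.11 (SD, n = 6).

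By the edgeR quasi-likelihood test with Benjamini-Hochberg adjustment over all genes, 0 of 25 members passed an adjusted p of 0.05 in Dp16 livers, where 0.0395% of all genes passed in either direction. In Dp16-2xIFNRs livers 1 of 25 passed, where 0.0986% of all genes passed. At an unadjusted p under 0.05, 9 of 25 members were lower in Dp16 livers, against 2.35% of all genes, and 6 of 25 were lower in Dp16-2xIFNRs livers, against 5.23% of all genes; 0 members were higher in either. DESeq2 passed 3 members (Cyp51, Msmo1 and Nsdhl) in Dp16 livers and 2 (Cyp51 and Nsdhl) in Dp16-2xIFNRs livers. It tested 25209 genes, including genes of low count that the edgeR filter removed. Of these, 0.357% passed in Dp16 and 0.73% in Dp16-2xIFNRs livers. Some libraries share a number in their descriptions, whose meaning the labels do not give, and with that number as a random block limma-voom passed 1 member (Msmo1, -0.95, adjusted p = 0.0319) in Dp16 livers, against 0.105% of all genes. The same fit passed 2 (Cyp51, -0.54, adjusted p = 0.0472; Nsdhl, -0.61, adjusted p = 0.00607) in Dp16-2xIFNRs livers, against 0.513% of all genes.

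**Figure D2:**
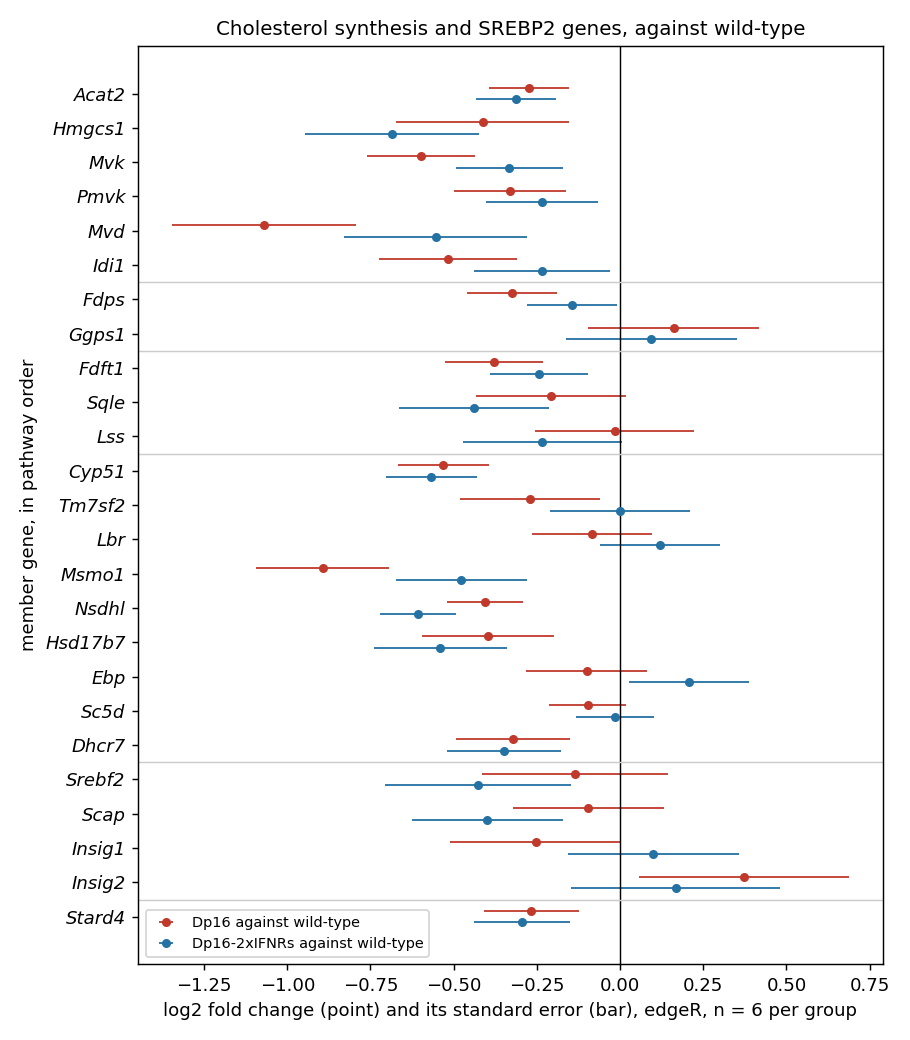
Log2 fold change against wild-type (x axis; points) with its standard error (bars) for 25 member genes in pathway order, in Dp16 (red) and Dp16-2xIFNRs livers (blue), n = 6 per group. All 6 genes of the mevalonate stage lie left of 0 in both groups, Mvd reaches -1.07 in Dp16, and Ggps1 and Insig2 lie right of 0 in both.

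The mevalonate stage, from acetoacetyl-CoA to isopentenyl and dimethylallyl diphosphate, had negative estimates for all 6 genes in both groups, with medians of -0.47 in Dp16 and -0.32 in Dp16-2xIFNRs livers. None passed the adjusted edgeR test. Mvd, the mevalonate diphosphate decarboxylase, had the largest estimate of any member in Dp16 livers. Its level ran from 22.0 to 65.7 CPM in wild-type (median 52.7), from 15.0 to 44.9 CPM in Dp16 (median 20.9) and from 23.7 to 57.8 CPM in Dp16-2xIFNRs livers (median 30.9). Wild-type library 6 and Dp16 library 4 were the exceptions to an otherwise clean separation of wild-type from Dp16. The log2 fold change of Mvd was -1.07 (SE 0.277; edgeR adjusted p = 0.289) in Dp16 and -0.55 (SE 0.274; edgeR adjusted p = 0.593) in Dp16-2xIFNRs livers.

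Mvk, the mevalonate kinase, ran from 28.7 to 40.3 CPM in wild-type (median 31.0) and from 13.6 to 30.7 CPM in Dp16 livers (median 20.9). In 5 of 6 Dp16 livers it was below the lowest wild-type liver, with a log2 fold change of -0.60 (SE 0.162; edgeR adjusted p = 0.350). In Dp16-2xIFNRs livers it ran from 21.4 to 29.3 CPM, with a log2 fold change of -0.33 (SE 0.161). Idi1, the isopentenyl diphosphate isomerase, stood at -0.52 (SE 0.208) in Dp16 and -0.23 (SE 0.206) in Dp16-2xIFNRs livers. Hmgcs1, the cytosolic HMG-CoA synthase, had the reverse order of estimates, with log2 fold changes of -0.41 (SE 0.261) in Dp16 and -0.68 (SE 0.262) in Dp16-2xIFNRs livers. Its wild-type livers alone covered 157 to 610 CPM, and 1 of 6 Dp16-2xIFNRs livers lay below that range.

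Acat2, which joins acetyl-CoA units, ran from 71.6 to 86.0 CPM in wild-type livers (median 75.9). In both of the other groups 5 of 6 livers were below the lowest of these, with log2 fold changes of -0.27 (SE 0.120) in Dp16 and -0.31 (SE 0.120) in Dp16-2xIFNRs. Pmvk, the phosphomevalonate kinase, was at -0.33 (SE 0.168) and -0.23 (SE 0.168), and the groups overlapped.

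The isoprenoid branch point held both directions of estimate. Fdps, at 161 to 240 CPM in wild-type livers, ran from 136 to 167 CPM in Dp16 livers, with a log2 fold change of -0.32 (SE 0.135; edgeR adjusted p = 0.907). In Dp16-2xIFNRs livers its log2 fold change was -0.14 (SE 0.135). Ggps1 had positive estimates of 0.16 (SE 0.257) in Dp16 and 0.09 (SE 0.256) in Dp16-2xIFNRs livers. Dp16 library 4, at 13.2 CPM against 3.92 to 5.95 CPM in the other 5 Dp16 livers, carried the first of these, which became -0.18 without that library.

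At the squalene stage, Fdft1, the squalene synthase, was lower than the wild-type mean in 6 of 6 livers of both other groups. Its log2 fold change was -0.38 (SE 0.148; edgeR adjusted p = 0.838) in Dp16 and -0.24 (SE 0.147) in Dp16-2xIFNRs livers. Sqle, the squalene epoxidase, was at -0.21 (SE 0.226) and -0.44 (SE 0.227). Lss, which closes the sterol ring to form lanosterol, had an estimate near 0 in Dp16 livers. It ran from 31.2 to 64.4 CPM in wild-type (median 44.6), 27.7 to 70.0 CPM in Dp16 (median 42.7) and 28.5 to 47.2 CPM in Dp16-2xIFNRs livers (median 43.6). The log2 fold change of Lss was -0.02 (SE 0.238, about -0.49 to 0.46 at 2 SE) in Dp16 and -0.23 (SE 0.238) in Dp16-2xIFNRs livers.

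The steps from lanosterol to cholesterol held Nsdhl, the member that passed the test, and Cyp51, the member whose groups separated from wild-type in both comparisons. Cyp51, Msmo1, Nsdhl and Hsd17b7 act in the removal of the methyl groups of lanosterol, with Cyp51 the 14-alpha demethylase, Msmo1 the C4 methyl oxidase, Nsdhl the C4 decarboxylating dehydrogenase and Hsd17b7 the 3-keto reductase. Nsdhl (ENSMUSG00000031349.4) lies on chromosome X, positions 72918557 to 72958514 of GRCm38. Its level was 102, 109, 114, 88.8, 110.0 and 89.0 CPM in wild-type libraries 1 to 6. In Dp16 libraries 1 to 6 it was 67.9, 94.7, 79.5, 77.1, 72.7 and 71.4 CPM. In Dp16-2xIFNRs libraries 1 to 6 it was 73.1, 63.0, 69.3, 58.3, 66.7 and 71.7 CPM. All 6 Dp16-2xIFNRs livers were below all 6 wild-type livers, as were 5 of 6 Dp16 livers. Nsdhl fell in Dp16-2xIFNRs livers to 0.657 of the wild-type level (log2 fold change -0.61, SE 0.114; edgeR adjusted p = 0.037). In Dp16 livers its log2 fold change was -0.41 (SE 0.114; edgeR adjusted p = 0.380), and the 2 groups differed by -0.20 (SE 0.114; edgeR adjusted p = 0.574). The call on Nsdhl depended on settings: the adjusted p was 0.079 with the level of Dbp as a term and 0.0549 with DESeq2 size factors in edgeR, and it rose above 0.05 on leaving out any 1 wild-type or Dp16-2xIFNRs library (0.0558 to 0.159), while the log2 fold change stayed between -0.65 and -0.54.

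Cyp51 was lower in every liver with the extra segment than in every wild-type liver. Its level ran from 186 to 242 CPM in wild-type (median 205), from 115 to 185 CPM in Dp16 (median 140.1) and from 117 to 167 CPM in Dp16-2xIFNRs livers (median 143). Among all tested genes, 0.0789% had all 6 Dp16 livers below all 6 wild-type livers, and Cyp51 was the 1 member of 25. The same held for 0.375% of all genes in Dp16-2xIFNRs livers, with 2 members of 25, Cyp51 and Nsdhl. The log2 fold change of Cyp51 was -0.53 (SE 0.138; edgeR adjusted p = 0.289) in Dp16 and -0.57 (SE 0.138; edgeR adjusted p = 0.141) in Dp16-2xIFNRs livers. DESeq2 gave Cyp51 adjusted p-values of 0.0347 and 0.0073.

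Msmo1 ran from 164 to 266 CPM in wild-type livers (median 200). In Dp16 males it was 165, 112 and 214 CPM (libraries 2, 3 and 4), and in Dp16 females 77.7, 57.3 and 72.6 CPM (libraries 1, 5 and 6). Dp16-2xIFNRs livers ran from 113 to 172 CPM (median 143). The 3 Dp16 females were below every other liver of the study. The log2 fold change was -0.89 (SE 0.199; edgeR adjusted p = 0.139) in Dp16 and -0.48 (SE 0.197; edgeR adjusted p = 0.532) in Dp16-2xIFNRs livers. Without Dp16 library 4 the Dp16 value was -1.07 (edgeR adjusted p = 0.0243), and with a gene length offset it was -0.88 (edgeR adjusted p = 0.0296). Hsd17b7 stood at -0.40 (SE 0.199) in Dp16 and -0.54 (SE 0.199) in Dp16-2xIFNRs livers, with overlapping groups.

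**Figure D3:**
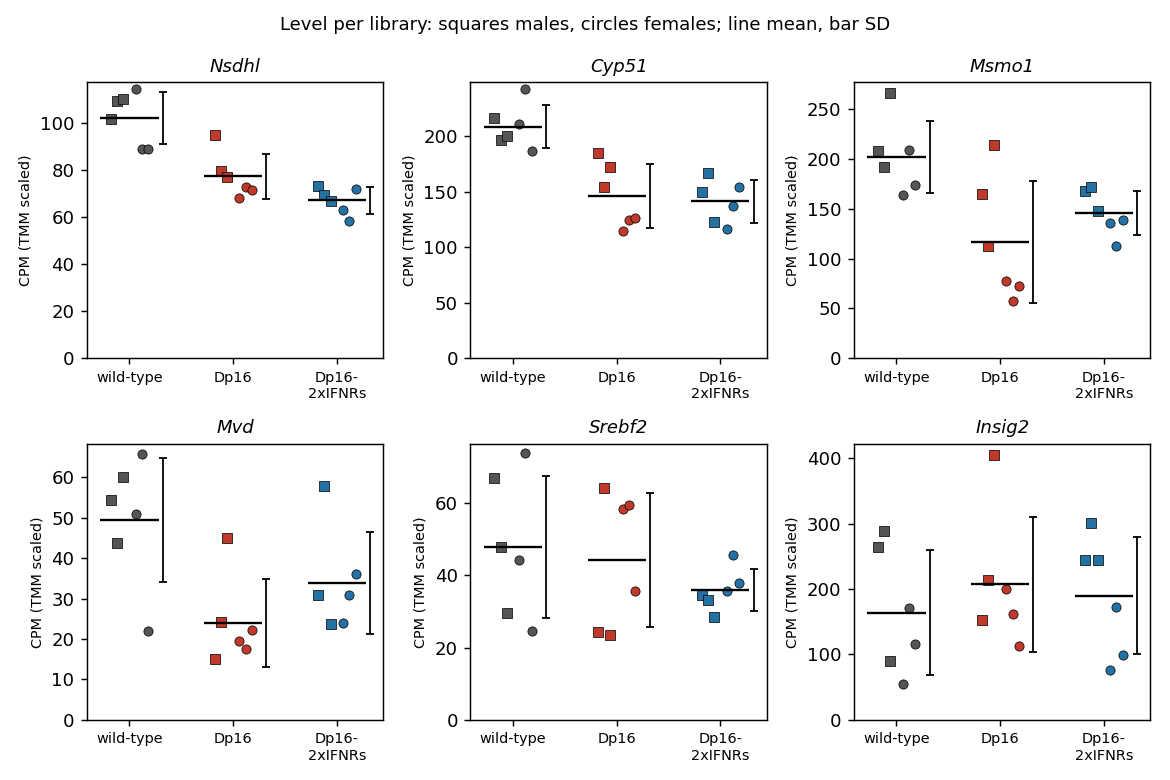
CPM, scaled by TMM factors, of 6 member genes in each library (points; squares males, circles females) by group, with the group mean (line) and SD (bar), n = 6. For Cyp51 both groups with the extra segment lie below all wild-type livers; for Msmo1 the 3 Dp16 females are lowest, and for Insig2 the groups overlap.

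Of the other enzymes of this stage, Dhcr7, the last reductase in one branch, had log2 fold changes of -0.32 (SE 0.172) in Dp16 and -0.35 (SE 0.172) in Dp16-2xIFNRs livers, with 6 of 6 livers below the wild-type mean in both. Ebp had estimates of -0.10 (SE 0.182) in Dp16 and 0.21 (SE 0.181) in Dp16-2xIFNRs livers, where 0 of 6 livers were below the wild-type mean. Its wild-type livers ran from 265 to 375 CPM and its Dp16-2xIFNRs livers from 329 to 408 CPM. Tm7sf2 was at -0.27 (SE 0.211) and 0.00 (SE 0.210, about -0.42 to 0.42 at 2 SE). Sc5d was at -0.10 (SE 0.117) and -0.01 (SE 0.117), and Lbr at -0.08 (SE 0.180) and 0.12 (SE 0.180). None of these 5 passed the adjusted edgeR test.

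Of the 4 control genes, 0 passed the adjusted edgeR test in either group, and their median log2 fold changes were -0.12 in Dp16 and -0.15 in Dp16-2xIFNRs livers. Srebf2, which encodes SREBP2, was 67.1, 47.8, 44.3, 74.0, 29.6 and 24.7 CPM in wild-type libraries 1 to 6. In Dp16 libraries 1 to 6 it was 58.4, 24.4, 64.1, 23.4, 59.5 and 35.6 CPM, and in Dp16-2xIFNRs libraries 1 to 6 it was 34.4, 35.8, 33.3, 45.8, 28.6 and 37.99 CPM. Wild-type and Dp16 livers each covered a wide range, and the Dp16-2xIFNRs livers lay inside both. The log2 fold change of Srebf2 was -0.14 (SE 0.279) in Dp16 and -0.43 (SE 0.280) in Dp16-2xIFNRs livers. Scap, the escort of SREBP2, was at -0.10 (SE 0.227) and -0.40 (SE 0.227).

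Insig1, a target of SREBP2 that also restrains it, was at -0.25 (SE 0.257) in Dp16 and 0.10 (SE 0.257) in Dp16-2xIFNRs livers, with 695 CPM in Dp16 library 4 against 226 to 357 CPM in the other Dp16 livers. Insig2, which restrains SREBP2 and is not known as its target, had the highest estimates of the 25 genes in Dp16, at 0.37 (SE 0.315) there and 0.17 (SE 0.315) in Dp16-2xIFNRs livers. Its wild-type livers covered 54.3 to 289 CPM. Stard4, a cytosolic sterol carrier, was at -0.27 (SE 0.143) and -0.29 (SE 0.143), with 5 of 6 livers below the wild-type mean in each group.

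Between the 2 groups with the extra segment, which differ in the dosage of the interferon receptors, 0 of 25 members passed the adjusted edgeR test, and 0% of all genes passed. The median log2 difference of the members, Dp16-2xIFNRs less Dp16, was -0.03, with 13 of 25 negative, and the median of all genes was -0.02. The largest estimates were those of Mvd at 0.51 (SE 0.275, about -0.03 to 1.06 at 2 SE) and Msmo1 at 0.42 (SE 0.198; edgeR unadjusted p = 0.0492, adjusted p = 0.532). The mevalonate genes had a median of 0.18 and the control genes a median of -0.25. The correlation of level, relative to the mean over all libraries, with log2 gene length was below 0 in every Dp16-2xIFNRs library (-0.33 to -0.06). In Dp16 libraries it ran from -0.40 to 0.52, and its part in these medians was not tested. For Nsdhl and Cyp51, the intervals at 2 SE were about -0.43 to 0.03 and -0.31 to 0.24.

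Sex was tested with the 18 livers in the same fit. Of all genes, 6.56% passed, and 2 of 25 members did. Both were lower in females. Insig2 ran from 90.5 to 289 CPM in wild-type males and from 54.3 to 170.3 CPM in wild-type females. In Dp16 livers it ran from 153 to 405 CPM in males and 113 to 200 CPM in females, and in Dp16-2xIFNRs livers from 244 to 302 CPM in males and 76.3 to 172 CPM in females. The sexes were separate in the third of these groups and overlapped in the others. The log2 difference of Insig2, female less male, was -0.93 (SE 0.260; edgeR adjusted p = 0.0345). That of Msmo1 was -0.62 (SE 0.163; edgeR adjusted p = 0.0255), with all females below all males in Dp16 and in Dp16-2xIFNRs livers. Sc5d at 0.27 (SE 0.0952; edgeR adjusted p = 0.104) and Scap at 0.45 (SE 0.185; edgeR adjusted p = 0.181) had higher estimates in females. The sex calls rested on single libraries: leaving out Dp16 library 5 or 6 left 0 of the 2, and leaving out any of 11 other libraries left 1, which was Insig2 without wild-type library 5 or Dp16 library 1 and Msmo1 otherwise.

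The difference between sexes in the genotype effect was tested as an interaction, and 0% of all genes and 0 of 25 members passed for either group. At an unadjusted p under 0.05, 6 of 25 members had a more negative Dp16 effect in females than in males, against 4.69% of all genes. These were Msmo1 (interaction -0.96, SE 0.322), Idi1 (-1.03, SE 0.355), Mvk, Fdft1, Ebp and Cyp51, all with an edgeR adjusted p of 0.582. For Dp16-2xIFNRs the same count was 0 of 25, against 1.17% of all genes. Dp16 library 4, a male, and library 5, a female, which had opposite trends with gene length, lay far apart: their log2 CPM less the wild-type mean was 0.10 and -1.80 for Msmo1, -0.07 and -1.24 for Mvk and 0.57 and -0.78 for Ebp. Without these 2 libraries, an alternative chosen after the data were seen, the Dp16 count was 1 of 25 (Idi1, -0.99, SE 0.400), against 1.59% of all genes, and Msmo1 was at -0.60 (SE 0.301; edgeR unadjusted p = 0.0647). With the sexes taken apart, the Dp16 estimate of Msmo1 was -1.40 in females and -0.43 in males, and that of Cyp51 was -0.81 and -0.25, with 3 livers a group and no adjusted p under 0.05 in either sex.

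Members of the SREBP2 circuit were also compared across the 18 livers after removal of group and sex means. Over the 300 pairs of the 25 genes the mean Pearson r was 0.126, against 0.0026 over pairs of all tested genes, with 47 pairs above 0.5 and 17 below -0.5. The share of all gene pairs beyond these bounds was not computed, so the counts do not set the members apart from other genes. Trends of level with gene length were not removed from these values. The relation of Srebf2 with each of the other 24 genes was computed (24 relations, p-values from 100000 permutations, Benjamini-Hochberg adjusted). Of these, 8 passed 0.05, with 6 positive and 2 negative. The permutations treated the 18 libraries as independent, although group and sex means had been removed and some libraries share a description number. The permutation p-values here and below may therefore be too small. For Hmgcs1, r was 0.839 and Spearman's rho 0.853 (permutation p = 1e-05 for each, adjusted 0.00024), with r of 0.838 without the 2 libraries farthest from the median of Srebf2. For Dhcr7, r was 0.84 and rho 0.862 (permutation p = 5e-05 and 2e-05, adjusted 0.0004 and 0.00024), with r of 0.82 without those 2. The sample descriptions carry numbers of 2 series; within them, r was 0.849 over 11 libraries and 0.728 over 7 for Hmgcs1, and 0.715 and 0.893 for Dhcr7.

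These relations stand against a background in which many genes follow Srebf2. An absolute r of 0.6 or more with Srebf2 was reached by 40.7% of all tested genes and by 8 of 24 members, so the share of members was not above that of all genes. The trend of level, relative to the mean over all libraries, with gene length differed between libraries. Its correlation across genes ran from -0.40 in Dp16 library 4 to 0.52 in Dp16 library 5. After removal of this trend from each library the share was 20.8% of all genes and 6 of 24 members. With the trend removed, 7 genes had an adjusted permutation p under 0.05. Hmgcs1 (r = 0.777), Dhcr7 (0.743), Lss (0.598) and Sqle (0.667) had passed before as well, and now did so at 0.00312, 0.00456, 0.0307 and 0.0153. Sc5d went from -0.429 to -0.715 (adjusted permutation p = 0.00552), Mvd from 0.254 to 0.638 (0.0206) and Fdps from 0.0355 to 0.626 (0.022), and these 3 had not passed before. Hsd17b7 went from 0.701 to 0.22, Scap from 0.622 to 0.238, Ebp from -0.653 to -0.02 and Tm7sf2 from -0.813 to -0.50, and these 4 no longer passed.

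**Figure D4:**
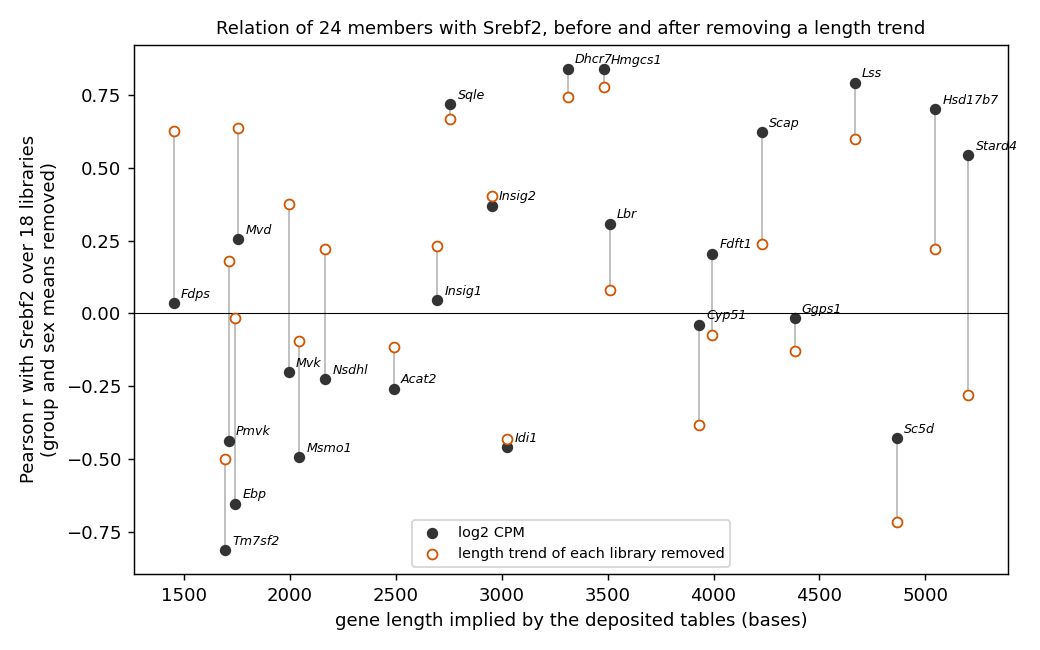
Pearson r with Srebf2 over 18 libraries, group and sex means removed (y axis), against gene length in bases (x axis) for 24 members, before (black) and after (open orange) removal of the length trend of each library. Short genes such as Ebp and Tm7sf2 move up, long genes such as Hsd17b7 and Stard4 move down, and Hmgcs1, Dhcr7 and Sqle move little.

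The hepatic clock differed between the livers and was spread unevenly over the groups. Dbp, a clock output gene whose level swings over the day, was under 10 CPM in 1 wild-type liver (1.19 CPM), 4 Dp16 livers (0.936 to 2.95 CPM) and 4 Dp16-2xIFNRs livers (0.631 to 8.46 CPM), and between 51.3 and 208.6 CPM in the rest. Cholesterol synthesis is itself known to vary over the day. The labels do not give the time of collection. With 1 wild-type liver at low Dbp, genotype and Dbp level cannot be told apart here, also in the fit with Dbp as a term. The livers fell into separate clusters of Dbp, so no correlation is given. The wild-type liver with low Dbp had a member mean of 0.15, and the 5 with high Dbp ran from -0.29 to 0.19. Dp16 livers 2 and 6, with high Dbp, had member means of -0.35 and -0.47, and Dp16-2xIFNRs livers 2 and 6 had -0.31 and -0.21. With the level of Dbp as a term in the edgeR fit, the median member estimate was -0.36 in Dp16 and -0.30 in Dp16-2xIFNRs livers, 0 members passed in either, and Insig2 turned from positive to negative estimates of -0.06 and -0.17. Of 15 clock genes, 0 passed the adjusted test in either group, and Per2 had the lowest unadjusted p, with a log2 fold change of -1.51 (SE 0.390; edgeR adjusted p = 0.289) in Dp16.

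**Figure D5:**
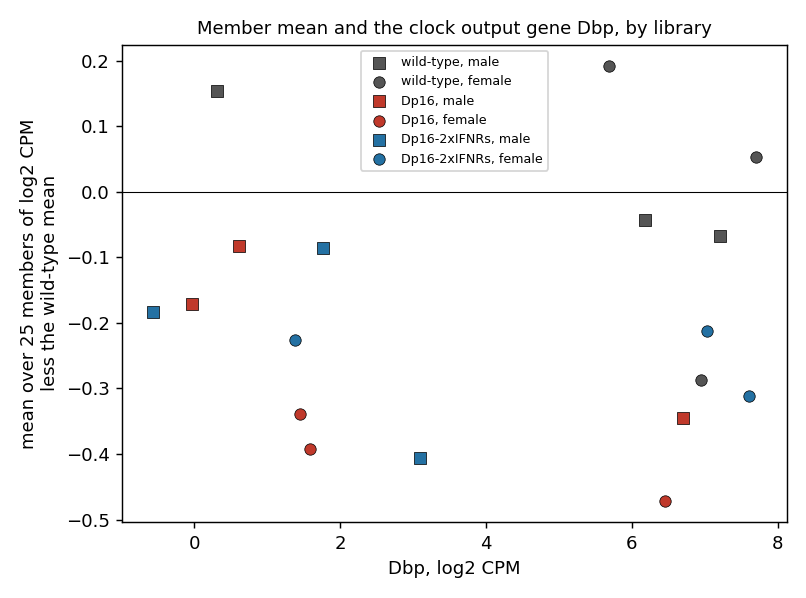
Mean over 25 members of log2 CPM less the wild-type mean (y axis) against log2 CPM of the clock output gene Dbp (x axis), 1 point per library, coloured by group, squares males and circles females. The libraries form a low and a high cluster of Dbp, and 8 of the 12 livers with the extra segment are in the low one, against 1 of 6 wild-type livers.

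The summed levels of other marker lists were compared between the groups, and their part in the member values was not tested. The summed level of 9 pericentral hepatocyte markers ran from 8354 to 11090 CPM in wild-type, from 5545 to 8188 CPM in Dp16 and from 6910 to 7898 CPM in Dp16-2xIFNRs livers, so wild-type was above both. Its member Cyp1a2 was at -0.77 (SE 0.162; edgeR adjusted p = 0.0803) in Dp16-2xIFNRs livers. The summed level of 7 erythroid markers had medians of 104, 139 and 218 CPM in wild-type, Dp16 and Dp16-2xIFNRs livers, with overlapping ranges, and that of 7 neutrophil markers medians of 6.35, 9.30 and 16.0 CPM. Of 8 stellate cell markers, 8 had positive estimates in Dp16 and 7 in Dp16-2xIFNRs livers, with summed medians of 207.2, 254.4 and 246.3 CPM in the 3 groups. Of 8 lymphoid markers, 7 were positive in both, with summed medians of 3.74, 5.66 and 7.67 CPM. The ranges of both lists overlapped between groups, and no gene of these 5 lists passed the adjusted edgeR test in a genotype comparison. Of 8 Kupffer cell markers, 6 were negative in Dp16 and 7 in Dp16-2xIFNRs livers. Of 7 endothelial markers, 2 and 5 were negative, and of 6 bile duct markers, 5 and 3. The endothelial marker Lyve1 was at 0.97 (SE 0.211) in Dp16 and 0.87 (SE 0.210) in Dp16-2xIFNRs livers. The summed ranges of these lists overlapped as well, and none of their genes passed. Of 5 fat markers, Lep was at 0 in every library, 1 was tested, and the list summed to 0.781 to 11.9 CPM in wild-type, 0.474 to 11.5 CPM in Dp16 and 0.351 to 6.78 CPM in Dp16-2xIFNRs livers. Of 7 markers of intestine and pancreas, Pnlip and Amy2a5 were at 0 in every library, 3 were tested, and the list summed to 69.8 to 245 CPM, 39.0 to 281 CPM and 89.4 to 180.1 CPM.

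Genes around the pathway were read from lists of their own, and no gene of the 8 lists passed the adjusted edgeR test in any genotype comparison. Of 11 genes of SREBP processing, 4 had negative estimates in Dp16 and 7 in Dp16-2xIFNRs livers, with medians of 0.08 and -0.07. Of 12 other SREBP targets, 6 and 9 were negative, with medians of 0.00 and -0.32. Of 12 genes of fatty acid synthesis, which SREBP1 is known to drive, 3 were negative in Dp16 and 12 in Dp16-2xIFNRs livers, with medians of 0.25 and -0.54. In Dp16 livers the fatty acid genes thus had a positive median where the cholesterol genes had a negative one; the difference between the lists was not tested.

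Lpin1, a phosphatidate phosphatase, had the lowest unadjusted p of these targets over the 3 genotype comparisons, in Dp16-2xIFNRs against Dp16 livers. Against wild-type it was at 0.82 (SE 0.590) in Dp16 and -1.21 (SE 0.595) in Dp16-2xIFNRs livers. Acacb, an acetyl-CoA carboxylase, was at 0.41 (SE 0.432) and -0.94 (SE 0.427). For both genes the 2 groups had estimates of opposite sign. Their differences, Dp16-2xIFNRs less Dp16, were -2.03 (SE 0.602; edgeR unadjusted p = 0.0032, adjusted p = 0.532) and -1.35 (SE 0.436; edgeR unadjusted p = 0.00588, adjusted p = 0.532).

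On the fate of cholesterol, 12 of 13 bile acid synthesis genes had negative estimates in Dp16 and 10 in Dp16-2xIFNRs livers, with medians of -0.21 and -0.18. Cyp8b1, the sterol 12-alpha hydroxylase, was at -0.37 (SE 0.267) and -0.77 (SE 0.269; edgeR adjusted p = 0.430). Of 14 genes of cholesterol uptake, storage and transport, 8 and 10 were negative, with medians of -0.02 and -0.17, and Npc1, the lysosomal cholesterol exporter, was at -0.32 (SE 0.260) and -0.81 (SE 0.262; edgeR adjusted p = 0.376). Of 7 genes of oxysterol-driven cholesterol efflux and LXR, 4 and 6 were negative, with medians of -0.02 and -0.27. This list holds the LXR receptor genes Nr1h2 and Nr1h3 themselves as well as genes of efflux. The 11 genes that use isoprenoids had medians of -0.07 and -0.02, and the 5 genes of ketone body synthesis medians of -0.14 and -0.08.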

How the data were processed

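Per the submitters' processing notes, HISAT2 2.1.0, HTSeq 0.6.1, SAMtools 1.5 and FastQC 0.11.5 were used on GRCm38; how strand and reads that fall on several genes were counted is not given here. The authors deposited whole-number counts per gene, and RPKM values, which were checked to be those counts divided by gene length and column total. Counts were filtered with filterByExpr by group and scaled with TMM factors. The test was quasi-likelihood in edgeR 4.0.16 under R 4.3.3, on a model of genotype plus sex over the 18 libraries together, with Benjamini-Hochberg adjustment over 15208 genes and a threshold of 0.05. A prior count of 2 went into log2 CPM, and bounds at 2 SE are the estimate less and plus 2 standard errors. The fit was tested on simulated data. No 2 libraries of a group agreed within sampling noise; the labels call the 6 livers of a group separate samples.

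The members and gene lists were chosen with earlier results of these data known, including low cholesterol synthesis genes in Dp16 livers, so the direction over the members is not independent support. All 26 members are named, and of each other list up to 3 genes past the threshold, or else the gene with the smallest unadjusted p, as values only. Positions came from GENCODE M21 and promoter windows from RefSeq. Alternatives were DESeq2 1.42.0, limma-voom (limma 3.58.1), other scalings, filters, terms and blocks, each sex alone, limma on log2 RPKM, and leaving out 1 library at a time. For 7 pairs of libraries of different groups that share a description number, whose meaning the labels do not give, all of the same sex, deviations from group means correlated at 0.262 to 0.446 (median 0.323), against a median of 0.218 for 47 other same-sex pairs; with the sex mean removed as well the medians were -0.040 and -0.083. The correlation limma estimated within that number, with genotype and sex in the model, was 0.407. Added after the data were seen were Dbp as a term, the gene length offset, and the relations with Srebf2 with and without a length trend, the interaction without Dp16 libraries 4 and 5, and the check of pairs with sex removed.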

Additional observations from a re-analysis of the deposited data

Results flagged for a closer look

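Of 75 groups of 6 values (25 members in 3 groups), 7 held a library whose gap to the nearest other, divided by the range of the group, was above Dixon's critical value for 6 samples. Chance flags about 1 in 20 such groups. Dp16 library 4 gave 4 of the 7: Mvd at 44.9 CPM (the other Dp16 livers ran from 15.0 to 24.3 CPM), Ggps1 at 13.2 CPM (3.92 to 5.95 CPM), Insig1 at 695.1 CPM (226 to 357 CPM) and Insig2 at 404.8 CPM (113 to 213 CPM). This library had the smallest scaling factor (0.803) and the most negative trend of level with gene length (-0.40). Mvd was high in Dp16-2xIFNRs library 3, at 57.8 CPM against 23.7 to 36.1 CPM. Fdps was low in Dp16-2xIFNRs library 6, at 129.7 CPM against 172 to 196 CPM. Stard4 was low in wild-type library 6, at 67.7 CPM against 86.7 to 96.2 CPM.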

How the results depend on the processing

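The median member log2 fold change stayed negative in Dp16 and in Dp16-2xIFNRs livers under every alternative run. The number of members past the threshold did not stay. In Dp16 livers it went from 0 to 3 with DESeq2 and to 1 with the description number as a random block, the gene length offset, and log2 RPKM under either pseudocount. In Dp16-2xIFNRs livers it went from 1 to 2 with DESeq2 and the random block, and to 0 with DESeq2 size factors in edgeR, a stricter CPM filter (1 or more in 6 libraries), no low count filter, the replicate block, sex left out of the model, males only, females only and Dbp as a term. Leaving out each library gave 0 to 1 in Dp16, 0 to 1 in Dp16-2xIFNRs and 0 to 2 for sex. The sex count was 1 with no low count filter, the random block, Dp16 libraries 4 and 5 left out, and Dbp as a term. Among these alternatives, the share of all genes that passed is given only for DESeq2 and the random block, in the genotype comparisons. The other counts are given without it, so they do not set the members apart from other genes. The median difference between the 2 groups with the segment was 0.16 in females only, and -0.05 to 0.10 on leaving out each library. For these changes the cause was not tested, except that single sexes and left-out libraries use fewer samples.

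The labels give each group sample numbers 1 to 6. Nothing in the labels says that a number is shared, and not every pair correlated over 0.1: over 18 same-numbered pairs, deviations from group means correlated at -0.449 to 0.342 (median -0.096), 8 were over 0.1, all of the same sex, and 5 libraries correlated best with their own number. With the sex mean removed as well, the range was -0.245 to 0.360 (median 0.039), with 6 over 0.1. The replicate block turned Tm7sf2 in Dp16-2xIFNRs livers to 0.00024 and gave Nsdhl -0.60 (edgeR adjusted p = 0.0862).

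Small estimates turned sign. In Dp16 livers, Ggps1 was -0.00279 with age as a term, -0.00381 with the random block, -0.16 in females and -0.28 without Dp16 libraries 4 and 5. Lss was 0.0495 with the first digits of the description number as a term, 0.0368 in females, and 0.00873 and 0.00478 on log2 RPKM with 1 and 0.1 added. In males Tm7sf2 was 0.0394, Ebp 0.25 and Sc5d 0.0477, and in females Srebf2 was 0.0976 and Scap 0.0585. Insig2 was -0.0630 with Dbp as a term. In Dp16-2xIFNRs livers, Tm7sf2 was 0.00811 with DESeq2, 0.0372 with limma-voom, 0.00915 with DESeq2 size factors, 0.00241 with TMM without chromosome 16, 0.0174 with the CPM filter, 0.0679 with age, 0.0236 with the first digits, 2.93e-05 with the random block, 0.0159 in males and 0.106 with Dbp. Sc5d was 0.00475 with the CPM filter, 0.00801 with the random block, 0.00732 in males, 0.0126 with Dbp and 0.0989 with the length offset. In males Ggps1 was -0.00971, Lbr -0.0939 and Insig1 -0.0107, and Insig1 was -0.0387 and -0.0392 on log2 RPKM with 1 and 0.1 added. Insig2 was -0.166 with Dbp. Leaving out each library gave ranges across 0 in Dp16 for Ggps1 (-0.18 to 0.27), Lss (-0.17 to 0.12), Ebp (-0.28 to 0.0277), Srebf2 (-0.36 to 0.0321) and Scap (-0.21 to 0.0602). In Dp16-2xIFNRs livers the ranges were -0.0918 to 0.113 for Tm7sf2, -0.0575 to 0.0286 for Sc5d, -0.0556 to 0.24 for Insig1 and -0.0019 to 0.33 for Insig2.

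With 6 livers a group, log2 differences of the size seen for most members lay within 2 SE of 0. Ggps1, the lowest of the 25 tested genes per length, had 1495 to 1784 counts per group.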
